A study of Mus musculus with 6 samples.

Results

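The genes described are 34 genes of the NRF2 pathway and of antioxidant defence, chosen by name as a list: the transcription factor NRF2 (Nfe2l2), its regulator KEAP1, and the enzymes and transporters that make and recycle glutathione, supply NADPH and remove peroxides and electrophiles. All 34 of 34 were among the 16836 genes of the deposited table, and 33 of them reached 1 CPM (reads of a gene scaled to the library total) in 3 or more libraries and entered the test over 12118 genes, while Aox1 did not. Polyadenylated RNA was sequenced from mouse bone marrow-derived macrophages, which are grown in culture from marrow precursors. The study compared macrophages of Ube3a knockout mice (KO, labelled UBE3A KO, with Ube3a-/- in the protocol) with those of wild-type littermates (WT, labelled Wild-type), 3 libraries each, to learn what loss of this E3 ubiquitin ligase does to the macrophage transcriptome. The labels name no treatment, age, sex or knockout allele, nor whether each library came from its own animal, and the p-values rest on the variation among these 6 libraries, part of which may be technical. Levels are CPM on the authors' scaled library sizes, given per library or as mean ± SD (n = 3 libraries per genotype), and differences are log2 fold changes of CPM + 1, KO against WT, which understate the change of low genes.

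NRF2 is a transcription factor that is kept scarce in unstressed cells, because KEAP1 hands it to a CUL3 ubiquitin ligase for breakdown by the proteasome. Oxidants and electrophiles that modify cysteines of KEAP1 let NRF2 build up, pair with small MAF proteins and bind antioxidant response elements (AREs) near genes for glutathione synthesis, thioredoxin reduction, NADPH supply and quinone detoxification. Macrophages make superoxide and peroxide in their respiratory burst, and peroxiredoxins, glutathione peroxidases and catalase limit what these do to the cell itself. Much of NRF2's control is on the protein, which RNA sequencing does not measure, so the transcripts of its targets are what these data show of the pathway.

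The ARE is the sequence element through which NRF2 is known to act, and its core was looked for as TGACNNNGC on both strands (GCNNNGTCA when read on the other strand) in the 250 bases before each RefSeq start (GRCm38.p6). Promoter sequences matched 30 of the 34 genes, with 38 starts, and 8 of these genes held the core. Of the 38 starts, 8 (21.1%) had it, as had 3338 (10.2%) of all 32851 promoters of that length. The core begins 134 bases before the start of Gclm, 92 before a start of Txnrd1, 56 before that of Sod1, 133 before that of Prdx1 and 240 before that of Nfe2l2. These 5 stretches are shown because the first 3 belong to genes that shared an order of libraries and the others to a peroxiredoxin and to NRF2 itself, which did not share it. Each is read in the direction of its gene, with the core in capitals, and the core of Prdx1 overlaps an AP-1 site (TGACTCA on either strand).
Gclm, chr3:122245398-122245457, plus strand: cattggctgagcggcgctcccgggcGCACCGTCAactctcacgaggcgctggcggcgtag
Txnrd1, chr10:82859089-82859148, plus strand: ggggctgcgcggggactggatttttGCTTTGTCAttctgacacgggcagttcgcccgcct
Sod1, chr16:90220681-90220740, plus strand: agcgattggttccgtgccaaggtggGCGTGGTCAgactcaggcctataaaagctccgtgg
Prdx1, chr4:116685441-116685500, plus strand: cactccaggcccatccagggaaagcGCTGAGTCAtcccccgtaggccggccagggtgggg
Nfe2l2, chr2:75704869-75704913, minus strand: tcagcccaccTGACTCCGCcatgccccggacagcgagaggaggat
G6pdx, Mgst1 and Gsta3 also held the core and did not share that order of libraries. Txn1, Pgd, Taldo1, Gpx1, Cat, Esd and Nqo1 shared the order without the core in this window, and no promoter sequence matched Gclc, Gsr and Abcc1. A link between core and order was not tested. Nqo1, Srxn1 and Slc7a11, all known NRF2 targets, did not hold the core in this window, which says nothing of sites farther away.

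Reads counted on the genes of the deposited table numbered 25454862 to 35517269 per library. Ube3a, the targeted gene, stood at 69.7, 61.2 and 77.0 CPM in KO replicates 1 to 3 and at 207, 194 and 178 CPM in WT replicates 1 to 3, so that the KO libraries kept part of the transcript. Its log2 fold change of −1.47 ± 0.10 (SE) had an adjusted p of 0.00444 in limma (Benjamini-Hochberg over all tested genes, threshold 0.05). Replicate 2 of either genotype stood apart from the others by having almost no Xist RNA, with 0.900 (KO) and 0.495 CPM (WT) against 1087 to 1329 CPM elsewhere. All 10 macrophage markers were present, with a summed level of 16003 to 18726 CPM in KO and 16406 to 18119 CPM in WT. Lyz2 alone had 8859 to 11216 CPM over the 6 libraries, so the sums say little of the other markers. The 9 of 12 neutrophil markers in the table summed to 8.20 to 21.3 CPM in KO and 10.2 to 32.7 CPM in WT. Stromal, B cell, dendritic and mast cell markers summed to at most 4.38 CPM in any library, and erythroid and T cell markers were not analysed here.

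None of the 33 tested genes of the pathway changed with genotype. Glutathione synthesis and recycling genes had log2 fold changes below 0 in 5 of 5 cases, the peroxiredoxins split 3 to 3, and NRF2 and KEAP1 themselves lay at 0.012 and 0.033. Among the glutathione genes, Gss (−0.019) and Slc7a11 (−0.17) changed sign with some single libraries left out. In limma over all genes the adjusted p of the 33 was between 0.866 and 0.981, where 2 of 12118 genes (0.0165%) passed. Gclc, the catalytic subunit of the enzyme that limits glutathione synthesis, was the only one with an unadjusted limma p under 0.05, a share of 3.03% against 4.13% of all tested genes (2.44% on the side lower in KO, where Gclc lay). Log2 fold changes were below 0 in 19 of the 33 genes, with a median of −0.039, beside 6006 of 12118 and a median of 0.0015 over all tested genes. In none of the 33 did all KO libraries lie on one side of all WT libraries, which was so in 9.95% of all tested genes. For 28 of the 33 genes (84.8%) the 95% interval kept inside a 1.5-fold change of CPM + 1 either way, as for 90.4% of all tested genes. The 5 others were Gclm, Slc7a11, Nqo1, Prdx5 and Gstp1. For genes near 1 CPM, such as Gsta3 among the 28, this does not bound the change of CPM itself, which can be larger. An exact permutation test of 3 against 3 libraries cannot give a p under 0.1, so the fit across genes was used.

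**Figure D1:**
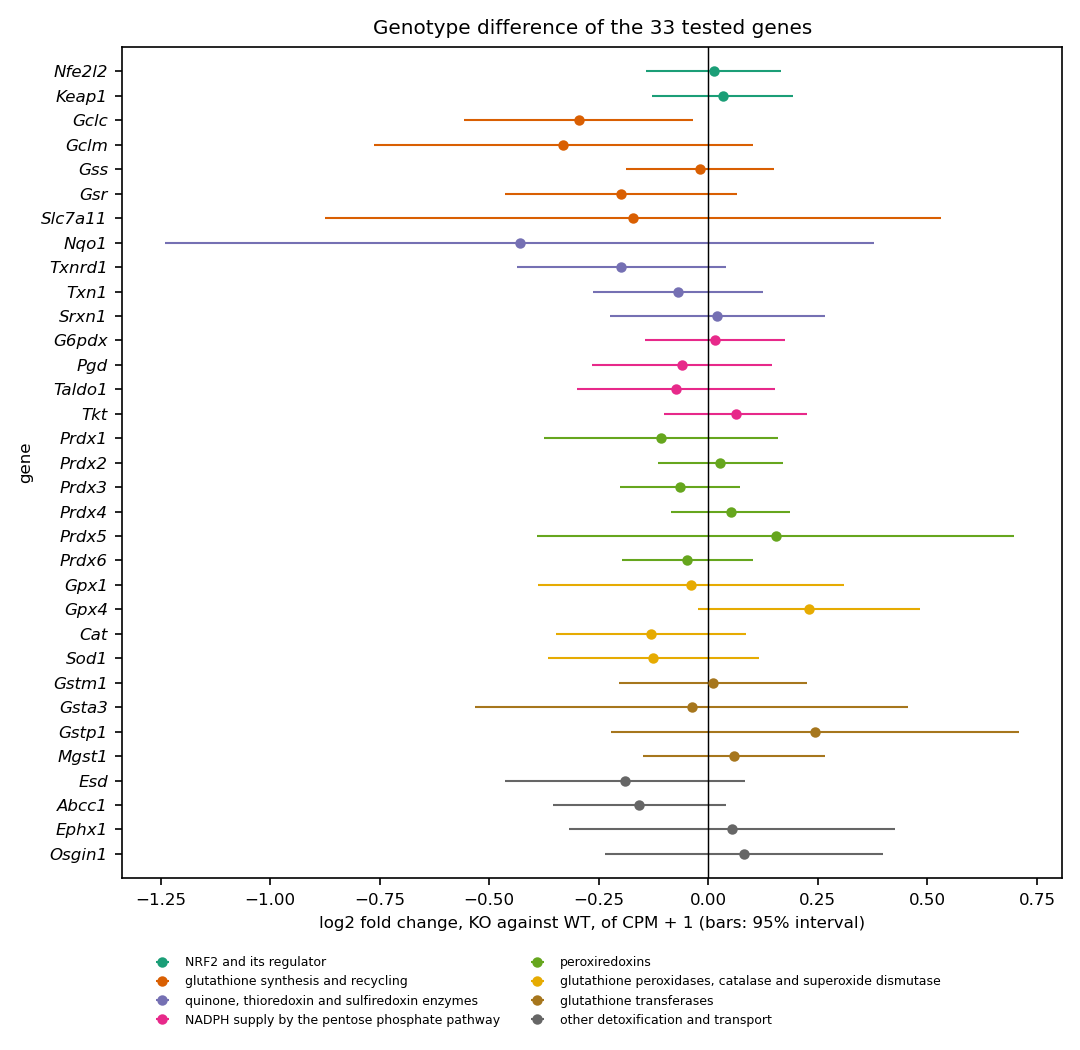
Log2 fold change of CPM + 1, KO against WT (x axis), for the 33 tested genes (y axis), coloured by role, with 95% intervals from limma. Only the interval of Gclc excludes 0, and none of the genes passed after adjustment.

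The transcripts of NRF2 and of its regulator did not differ between genotypes beyond the spread of the libraries. Nfe2l2 (NRF2; chr2:75675513-75704641, minus strand, GRCm38) had 339.9, 313 and 315 CPM in KO replicates 1 to 3, and 319, 336 and 305 CPM in WT replicates 1 to 3. The genotypes overlapped, with KO replicate 1 highest and WT replicate 3 lowest, and the log2 fold change was 0.012 ± 0.067 (SE, 95% interval −0.14 to 0.17; limma adjusted p = 0.971). Keap1 (the cysteine-rich sensor that presents NRF2 to its ligase; chr9:21229730-21239361, minus strand) had 86.5, 81.7 and 78.8 CPM in KO replicates 1 to 3, and 75.5, 85.5 and 80.6 CPM in WT replicates 1 to 3. KO replicate 1 and WT replicate 2 were its 2 highest libraries, as for Nfe2l2, and WT replicate 1 was its lowest. Its log2 fold change was 0.033 ± 0.070 (SE, 95% interval −0.13 to 0.19; limma adjusted p = 0.928). Keap1 shares 510 bp of exon with Gm16754 on the opposite strand, and no source used here says whether counting used strand, which leaves the reads of that stretch uncertain.

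Glutathione is made by glutamate-cysteine ligase, which GCLC and its modifier GCLM form, and by the synthetase GSS, while GSR reduces it again after use. Gclc (chr9:77754535-77794485, plus strand) had 56.5, 56.2 and 62.1 CPM in KO replicates 1 to 3, and 84.5, 61.2 and 71.0 CPM in WT replicates 1 to 3. WT replicates 1 and 3 were above all KO libraries, and WT replicate 2 lay within the KO range. Its log2 fold change was −0.30 ± 0.11 (SE, 95% interval −0.56 to −0.034; limma adjusted p = 0.866). Gclm (chr3:122245557-122270732, plus strand), chosen after its values were seen, had 121, 98.9 and 121 CPM in KO replicates 1 to 3, and 191, 108 and 141 CPM in WT replicates 1 to 3. Again WT replicates 1 and 3 were the 2 highest and WT replicate 2 lay inside the KO range, and the log2 fold change was −0.33 ± 0.19 (SE, 95% interval −0.76 to 0.10; limma adjusted p = 0.866). Gsr (chr8:33652523-33698163, plus strand), chosen after its values were seen, showed the same order, with 131, 125 and 139.5 CPM in KO replicates 1 to 3, and 178, 127 and 154 CPM in WT replicates 1 to 3. Its log2 fold change of −0.20 did not pass (limma adjusted p = 0.866). Gss, the enzyme of the second step of synthesis, was the steadiest of the 33 genes, with 19.2, 20.6 and 20.3 CPM in KO replicates 1 to 3, and 19.9, 19.9 and 21.1 CPM in WT replicates 1 to 3. Its SD over the 6 libraries was 0.044 on the log2 scale, with WT replicate 3 highest, KO replicate 1 lowest and the genotypes interleaved. Slc7a11, the cystine importer that feeds the pathway, was low and uneven, with 5.44, 1.80 and 3.02 CPM in KO replicates 1 to 3, and 4.80, 4.03 and 2.55 CPM in WT replicates 1 to 3. KO replicate 1 was highest and KO replicate 2 lowest, 3.02-fold apart, on 56 to 150 reads, and the log2 fold change was −0.17 (95% interval −0.87 to 0.53).

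**Figure D2:**
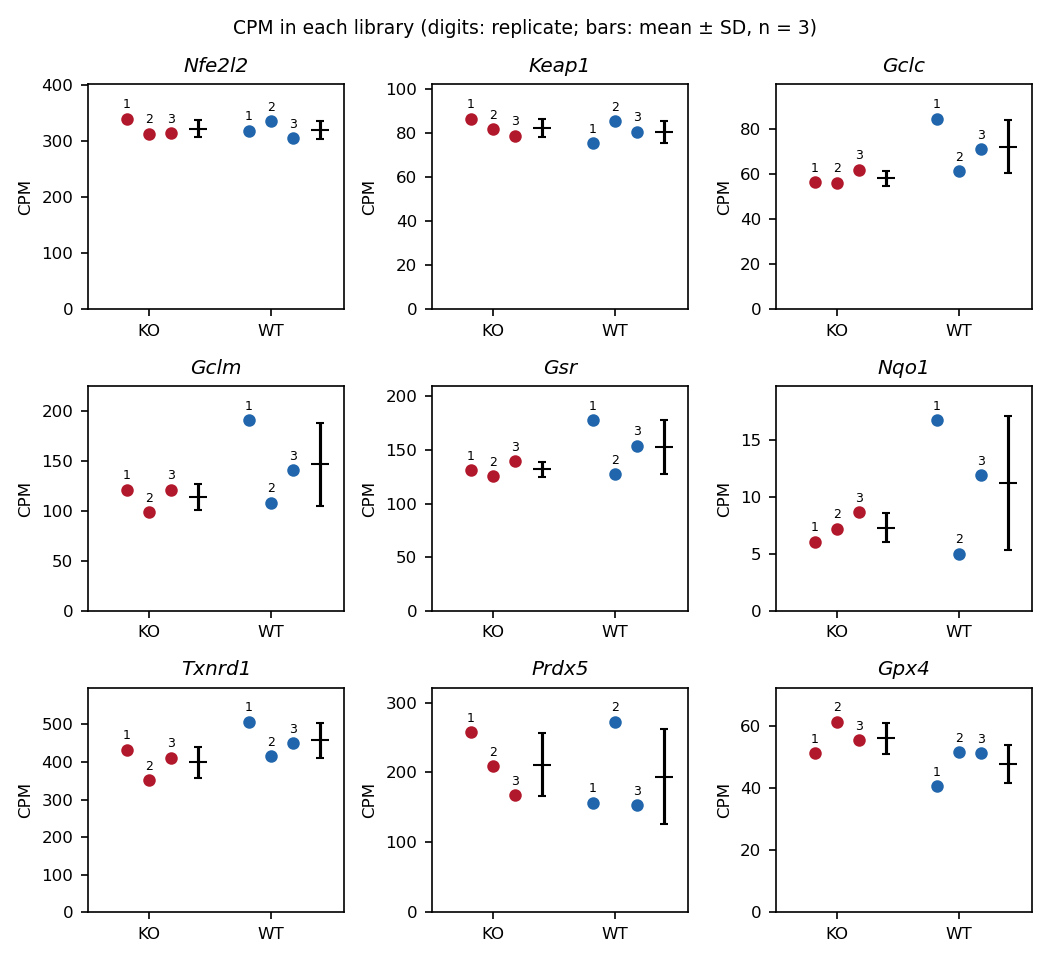
CPM (y axis, from 0) of 9 genes in each KO and WT library (points, with the replicate number beside them) and mean ± SD per genotype (n = 3, black). For Gclc, Gclm, Gsr, Nqo1 and Txnrd1 WT replicates 1 and 3 lie above all KO libraries and WT replicate 2 does not, while Nfe2l2 and Keap1 are nearly level. Gclm, Gsr, Txnrd1 and Gpx4 were chosen after their values were seen, so the 9 genes do not show how common this order is.

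Nqo1, the quinone reductase often used as a readout of NRF2, varied most between libraries of the 33 genes. Nqo1 (chr8:107388225-107403206, minus strand) had 6.08, 7.23 and 8.66 CPM in KO replicates 1 to 3, and 16.7, 5.02 and 11.9 CPM in WT replicates 1 to 3. WT replicate 1 was the highest library and WT replicate 2 the lowest of all 6, 3.33-fold apart, so that the WT libraries enclosed the KO range. The log2 fold change was −0.43 ± 0.35 (SE, 95% interval −1.24 to 0.38; limma adjusted p = 0.866). Txnrd1 (chr10:82833951-82897712, plus strand), the cytosolic selenoenzyme that keeps thioredoxin reduced, was chosen after its values were seen and had 433, 352 and 412 CPM in KO replicates 1 to 3, and 507, 416 and 450.2 CPM in WT replicates 1 to 3. WT replicates 1 and 3 were its highest libraries and the log2 fold change was −0.20 ± 0.10 (SE, 95% interval −0.44 to 0.039; limma adjusted p = 0.866). Its substrate thioredoxin (Txn1) had 290.4, 279 and 308 CPM in KO replicates 1 to 3, and 316, 275 and 332 CPM in WT replicates 1 to 3. Txn1 and Srxn1, like Txnrd1, were chosen after their values were seen. In Txn1, WT replicate 3 was highest and WT replicate 2 lowest, over a narrow range, and the log2 fold change was −0.069. Srxn1, the sulfiredoxin that restores overoxidised peroxiredoxins, had 219, 167 and 189.8 CPM in KO replicates 1 to 3, and 192, 201 and 172 CPM in WT replicates 1 to 3. KO replicate 1 and WT replicate 2 were on top, as for Nfe2l2 and Keap1, and the log2 fold change was 0.020.

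NADPH, which GSR, TXNRD1 and NQO1 use, comes in large part from the pentose phosphate pathway. The dehydrogenases G6pdx and Pgd make it, and Taldo1 and Tkt run the branch that returns the sugars. G6pdx stood at 338 ± 8.68 CPM (KO) and 335 ± 22.0 CPM (WT) and Tkt at 603 ± 35.3 CPM (KO) and 577 ± 18.1 CPM (WT), with log2 fold changes of 0.015 and 0.063. Pgd, chosen with Taldo1 after their values were seen, had 571, 594 and 588 CPM in KO replicates 1 to 3, and 658, 537 and 640.5 CPM in WT replicates 1 to 3. Taldo1 had 312, 331 and 316 CPM in KO replicates 1 to 3, and 361, 288 and 365 CPM in WT replicates 1 to 3. Their log2 fold changes were −0.060 and −0.074. In both genes WT replicates 1 and 3 were the 2 highest libraries and WT replicate 2 the lowest, with the KO libraries between them. Taldo1 is the only one of the 34 genes on chromosome 7, which also carries Ube3a. G6pdx shares 418 bp of exon with Ikbkg on the opposite strand.

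Peroxiredoxins reduce peroxides through a reactive cysteine, Prdx1, Prdx2 and Prdx6 in the cytosol, Prdx3 in mitochondria, Prdx4 in the endoplasmic reticulum and Prdx5 in several compartments. Prdx1 was by far the most abundant of them per exon length (323 CPM per kb), followed by Prdx5 (94.8 CPM per kb), and the other 4 lay between 20.01 and 56.2. Prdx2 and Prdx4 were among the 3 steadiest of the 33 genes. Prdx2 had 85.4, 89.0 and 85.1 CPM in KO replicates 1 to 3, and 80.5, 89.1 and 85.1 CPM in WT replicates 1 to 3. Prdx4 had 119, 116 and 127 CPM in KO replicates 1 to 3, and 118, 115 and 115 CPM in WT replicates 1 to 3. Libraries of either genotype were interleaved in both genes, whose SD over 6 libraries was 0.053 and 0.052 (log2). Prdx5 was among the 3 most variable and went against Nqo1 and Gclm, with 258, 209 and 167 CPM in KO replicates 1 to 3, and 157, 272 and 153 CPM in WT replicates 1 to 3. WT replicate 2 was its highest library and WT replicates 1 and 3 its 2 lowest, and the log2 fold change was 0.15 (95% interval −0.39 to 0.70). Prdx5 shares 409 bp of exon with Trmt112 on the opposite strand. Prdx1 stood at 949 ± 134 CPM (KO) and 1017 ± 75.2 CPM (WT), Prdx3 at 68.8 ± 2.36 CPM (KO) and 72.0 ± 2.19 CPM (WT) and Prdx6 at 94.5 ± 4.67 CPM (KO) and 97.7 ± 4.25 CPM (WT). KO replicate 2 was the lowest library of Prdx1, and KO replicate 1 that of Prdx3 and Prdx6. These 3 genes had log2 fold changes of −0.11, −0.064 and −0.048.

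Among the other enzymes that remove peroxide and superoxide, the glutathione peroxidase Gpx4, which reduces lipid hydroperoxides, had the largest positive log2 fold change apart from Gstp1. Gpx4 had 51.2, 61.2 and 55.2 CPM in KO replicates 1 to 3, and 40.5, 51.4 and 51.1 CPM in WT replicates 1 to 3. KO replicate 2 was highest and WT replicate 1 lowest, KO replicate 1 lay just under WT replicate 2, and the log2 fold change was 0.23 ± 0.11 (SE, 95% interval −0.023 to 0.48; limma adjusted p = 0.866). Gpx4, chosen here after its values were seen, has a pseudogene, Gpx4-ps2, that matches it at 99.7% over 733 bp, so its reads are uncertain. The next 3 enzymes, likewise chosen after their values were seen, had the same 2 highest libraries as Gclm, WT replicates 1 and 3. Gpx1, which reduces hydrogen peroxide with glutathione, had 584, 701 and 604 CPM in KO replicates 1 to 3, and 738, 504 and 722 CPM in WT replicates 1 to 3. Its WT libraries enclosed the KO range, as those of Nqo1 did, and the log2 fold change was −0.039 ± 0.15 (SE, 95% interval −0.39 to 0.31; limma adjusted p = 0.959). Catalase (Cat), which splits hydrogen peroxide in peroxisomes, had 316, 307 and 339 CPM in KO replicates 1 to 3, and 387, 307 and 364 CPM in WT replicates 1 to 3. Sod1, the cytosolic superoxide dismutase, had 119.9, 117 and 129 CPM in KO replicates 1 to 3, and 148, 113 and 141 CPM in WT replicates 1 to 3. In Cat the lowest library was KO replicate 2, level with WT replicate 2, and in Sod1 it was WT replicate 2. The log2 fold changes were −0.13 for Cat and −0.13 for Sod1.

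Glutathione transferases, which join glutathione to electrophiles, spanned a wide range of levels, and none differed between genotypes beyond the spread. Gstm1 stood at 38.3 ± 3.58 CPM (KO) and 38.0 ± 3.08 CPM (WT) and the microsomal Mgst1 at 24.3 ± 2.20 CPM (KO) and 23.2 ± 1.37 CPM (WT). Gsta3 and Gstp1 were near the 1 CPM limit, at 0.868 ± 0.408 CPM (KO) and 0.911 ± 0.366 CPM (WT) for Gsta3 and 1.46 ± 0.396 CPM (KO) and 1.10 ± 0.509 CPM (WT) for Gstp1. Gsta3 had 14 to 38 reads per library, and Gstp1 19 to 52. Gstp1 is matched by Gstp2 at 98.2% over 707 bp, so its reads may have been split or lost between the 2 genes. All 4 had log2 fold changes between −0.038 and 0.24.

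The remaining genes serve detoxification and export. Abcc1, which pumps glutathione conjugates out of the cell, was chosen after its values were seen and had 349.9, 348 and 345 CPM in KO replicates 1 to 3, and 421, 342 and 405 CPM in WT replicates 1 to 3. Its KO libraries were nearly level (SD 0.010 on the log2 scale), with WT replicate 2 just below them and WT replicates 1 and 3 above. The log2 fold change was −0.16 ± 0.086 (SE, 95% interval −0.36 to 0.040; limma adjusted p = 0.866). Esd, a hydrolase that completes glutathione-dependent formaldehyde removal, stood at 256 ± 30.7 CPM (KO) and 292 ± 37.7 CPM (WT), and 9 pseudogenes match part of it at 95% or more. Ephx1, the microsomal epoxide hydrolase, stood at 16.1 ± 3.67 CPM (KO) and 15.3 ± 1.71 CPM (WT), with KO replicate 2 highest and KO replicate 1 lowest of all 6 libraries. Osgin1, a growth inhibitor induced by oxidative stress, stood at 16.6 ± 3.07 CPM (KO) and 15.5 ± 1.72 CPM (WT), with KO replicate 1 highest. The log2 fold changes were −0.19 for Esd, 0.053 for Ephx1 and 0.082 for Osgin1. Aox1, an aldehyde oxidase, had 1.20, 0.835 and 0.617 CPM in KO replicates 1 to 3, and 0.928, 0.920 and 0.776 CPM in WT replicates 1 to 3, on 20 to 30 reads. Its genotypes overlapped, and with no filter on low values its log2 fold change was −0.0036 (limma adjusted p = 0.997). Near copies, at 95% identity over at least 200 bp, were found for 9 of the 34 genes: Esd, Gpx4, Gstm1, Gstp1, Prdx1, Prdx2, Slc7a11, Sod1 and Txn1. Exons of 6 of the 34 overlap a gene on the opposite strand, Gclm, Gss and Prdx2 among them beside Keap1, G6pdx and Prdx5.

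Many of the genes shared an order of libraries, while none of the differences between genotypes passed the test. In 13 of the 33 genes WT replicates 1 and 3 were the 2 highest of the 6 libraries, which was so in 11.9% of all tested genes. This pair is named because it led most often among these same genes, so the share beside it is a description and no test. The 13 were Gclc, Gclm and Gsr of glutathione metabolism, Nqo1, Txnrd1 and Txn1, Pgd and Taldo1, Gpx1, Cat and Sod1, and Esd and Abcc1. Since the genotypes overlapped in all 33, WT replicate 2 could not lie above the KO range in these 13. It lay inside that range in 6 and below it in 7. WT replicate 1 exceeded WT replicate 2 by 1.15-fold (Txn1) to 3.33-fold (Nqo1) in these genes, and was the highest library in 11 of them. WT replicate 1 was the highest library in 13 of the 33 genes, beside 23.5% of all tested genes. The opposite order, with WT replicates 1 and 3 the 2 lowest, was seen in 2 of the 33, Prdx5 and Gpx4, beside 12.6% of all tested genes. The median SD of log2 values within WT was 0.16 for the 33 genes and 0.10 for all tested genes, and within KO it was 0.083 and 0.11. The next most frequent leading pairs were KO replicate 1 with WT replicate 1 (5 genes, 15.2%, beside 4.32% of all tested genes) and KO replicate 1 with WT replicate 2 (Nfe2l2, Keap1, Srxn1 and Prdx5, 12.1% beside 12.8%).

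**Figure D3:**
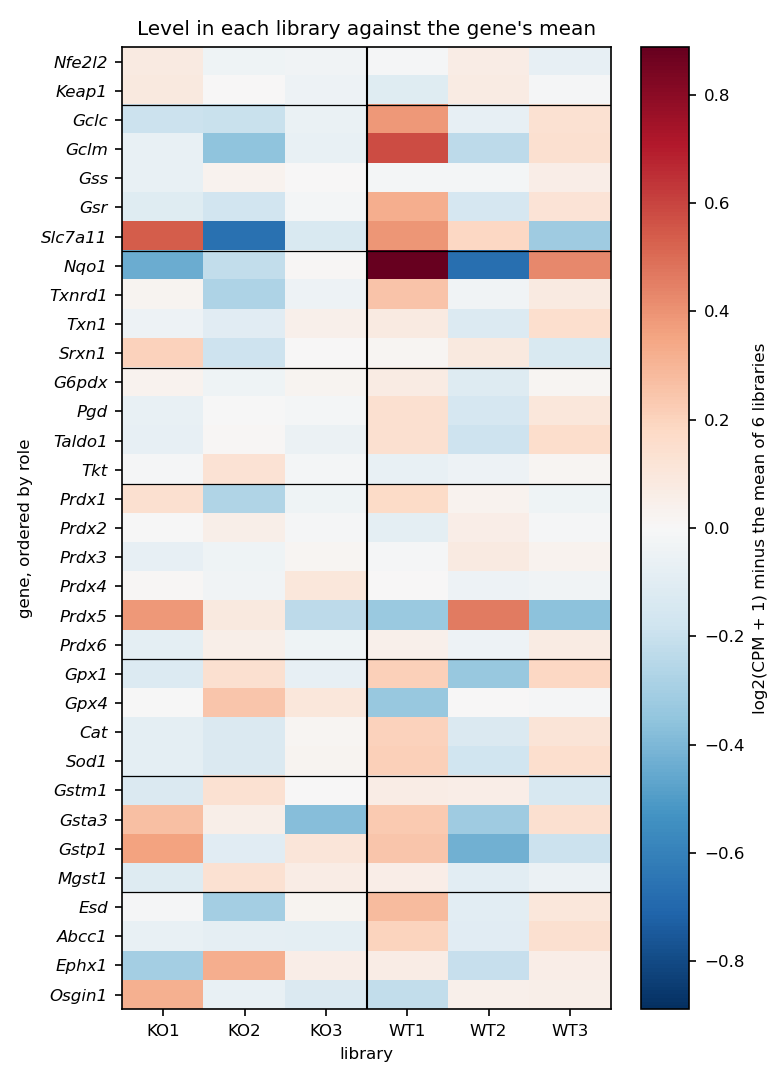
Level of each of the 33 tested genes (rows, ordered by role) in each library (columns) as log2(CPM + 1) minus the gene's mean over 6 libraries (colour). WT replicates 1 and 3 are red in Gclc, Gclm, Gsr, Nqo1, Txnrd1, Gpx1, Cat, Sod1, Esd and Abcc1, where WT replicate 2 is blue, and Prdx5 shows the reverse.

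Many, but not all, marker genes of 2 cell types also set WT replicates 1 and 3 apart. In 7 of the 9 neutrophil markers (Camp, Elane, Mmp8, Mpo, Ngp, S100a8 and S100a9) these were the 2 highest libraries, and in none the 2 lowest. In 7 of the 10 macrophage markers (Adgre1, Cd14, Cd68, Fcgr1, Lgals3, Mertk and Mrc1) they were the 2 lowest, and in none the 2 highest, while Csf1r, Itgam and Lyz2 showed neither. Neutrophil markers summed to 32.7 and 28.4 CPM in WT replicates 1 and 3, to 10.2 in WT replicate 2 and to 8.20, 18.7 and 21.3 in KO replicates 1 to 3, with Elane, Camp, Mpo and Prtn3 without a read in at least 1 library. Macrophage markers summed to 16514, 18119 and 16406 CPM in WT replicates 1 to 3 and to 17538, 18726 and 16003 in KO, where KO replicate 3 was the lowest of all 6. The part of either in the order of the libraries was not tested. In bulk RNA, a different make-up of the culture and a different level per cell cannot be told apart.

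None of the 33 genes passed after adjustment in any fit. With 1 library left out, the count with an unadjusted limma p under 0.05 changed most without WT replicate 2. Without it, 12 of the 33 genes (36.4%) had an unadjusted limma p under 0.05, 10 lower and 2 higher in KO, beside 10.6% of all tested genes in the same fit (4.94% lower and 5.64% higher). The lower ones were Nqo1, Gclc, Gsr, Abcc1, Gclm, Sod1, Cat, Taldo1, Esd and Txnrd1, and the higher ones Prdx5 and Gpx4. The log2 fold change was −0.87 ± 0.18 (SE) for Nqo1, −0.53 ± 0.14 for Gclm, −0.41 ± 0.095 for Gclc and −0.32 ± 0.085 for Gsr. None passed after adjustment over all genes, the smallest limma adjusted p being 0.209 (Nqo1), while 8 genes of the whole table (0.066%) did. KO and WT no longer overlapped in 15 of the 33 genes, beside 30.1% of all tested genes. These are the 13 genes with WT replicates 1 and 3 the 2 highest libraries and the 2 with them the 2 lowest. The count therefore restates that order and is no separate result, and the 12 genes named above all belong to this set. Without both replicate 2 libraries, which have almost no Xist, the count was 10 (30.3%) beside 11.4%. Of these, 9 were lower and 1 higher, beside 4.73% and 6.68%. None passed after adjustment, beside 0.198% of all tested genes that did, with a smallest limma adjusted p of 0.0980 (Nqo1), and 17 of the 33 did not overlap, beside 42.8%. With WT replicate 1 or WT replicate 3 left out instead, 0 of the 33 had an unadjusted limma p under 0.05, beside 1.23% and 3.19% of all tested genes. Leaving out KO replicates gave 1, 0 and 1 for replicates 1 to 3, beside 4.21%, 2.16% and 5.46%.

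**Figure D4:**
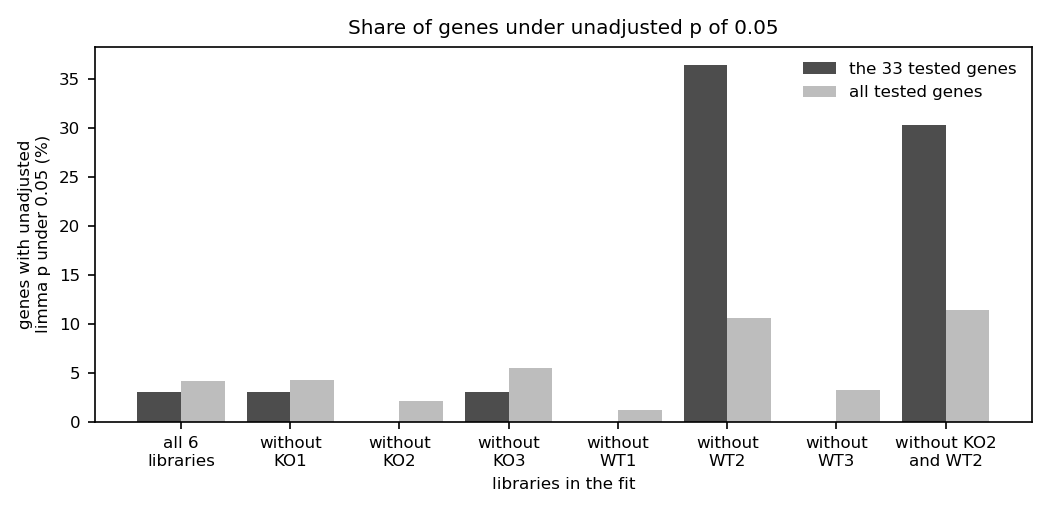
Share of genes with an unadjusted limma p under 0.05 (y axis, percent) with all 6 libraries and with libraries left out (x axis), for the 33 tested genes (dark) and all 12118 tested genes (light). The dark bar exceeds the light one in the fits without WT replicate 2 (36.4% against 10.6%) and without both replicate 2 libraries (30.3% against 11.4%), and in no other fit shown.

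Levels were compared between genes per kb of exon, on the union of exons in GENCODE M21, over which long annotated ends lower the value. Gpx1 was highest at 445 CPM per kb, followed by Prdx1 at 323 and Txn1 at 286, and then by Taldo1, Cat and G6pdx at 151, 129 and 109. In all, 6 of the 34 genes were above 100 CPM per kb and 26 above 10. Nfe2l2 stood at 84.6 CPM per kb and Keap1 at 17.4, next to Gclc at 17.3, from which it does not differ beyond the spread of the libraries. Glutathione synthesis genes lay low in this order, with Gclm at 20.7, Gss at 3.41 and Slc7a11 at 0.259 CPM per kb. The 4 genes under 1 CPM per kb were Gstp1, Slc7a11, Gsta3 and Aox1. Gstp1 and Slc7a11 have near copies, as have Prdx1 and Txn1 at the upper end, so their places in this order are less certain.

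**Figure D5:**
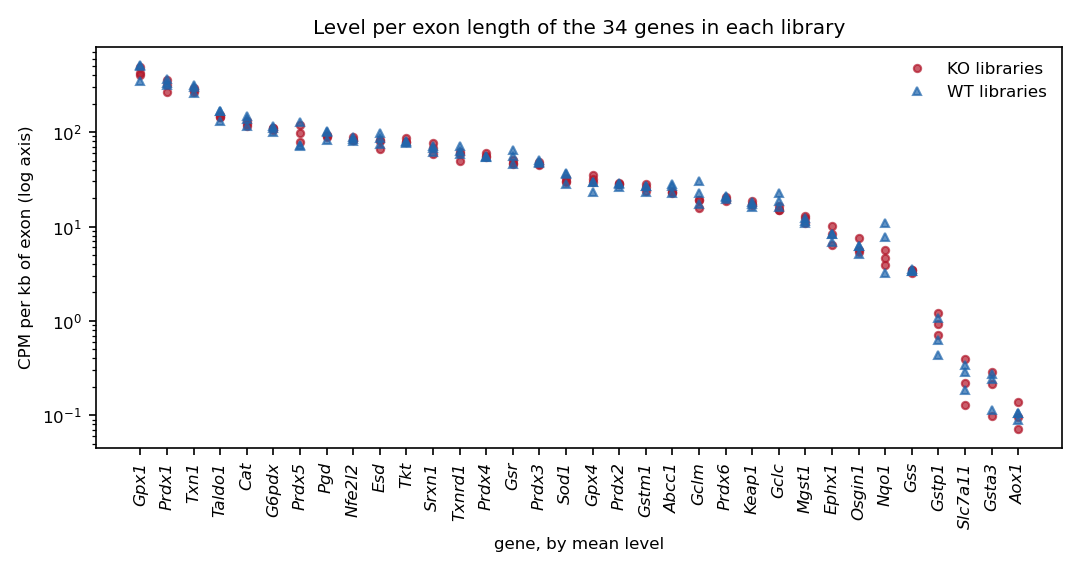
Level of the 34 genes in each library as CPM per kb of exon (y axis, log scale), in order of mean level (x axis), with KO libraries as circles and WT libraries as triangles. Gpx1, Prdx1 and Txn1 lie at the upper end, Gstp1, Slc7a11, Gsta3 and Aox1 the lower end, and the libraries of Nqo1 spread widest among genes above 1 CPM per kb.

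No further gene of the pathway passed the test. A second list held 93 partners of NRF2, other thiol and glutathione enzymes, further transferases and NRF2-linked heme, iron and NADPH genes, of which 84 were in the table and 79 were tested. None passed over all genes in limma (0.0165% of all tested genes did), and an unadjusted limma p under 0.05 was found for 2 higher and 1 lower genes (2.53% and 1.27%, beside 1.68% and 2.44% of all tested genes). Of the 79, 31 (39.2%) had log2 fold changes below 0, beside 49.6% of all tested genes, and the median was 0.029, beside 0.0015. On the higher side, Gstm5, a transferase of the mu class, stood at 4.49 ± 0.418 CPM (KO) and 3.41 ± 0.221 CPM (WT), and Oplah, which returns oxoproline of the glutathione cycle to glutamate, at 1.48 ± 0.171 CPM (KO) and 0.980 ± 0.136 CPM (WT). Ptgr1, a reductase of lipid aldehydes and ketones, and Sesn2, a stress-induced sestrin, had log2 fold changes of 0.16 and 0.18. On the lower side, Ccs, the copper chaperone of SOD1, stood at 14.9 ± 0.598 CPM (KO) and 17 ± 0.807 CPM (WT), and the mitochondrial superoxide dismutase Sod2 at 84.3 ± 5.2 CPM (KO) and 93.6 ± 5.10 CPM (WT). Gstt3, a theta class transferase, and Rpe, an epimerase of the pentose phosphate pathway, had log2 fold changes of −0.32 and −0.20. Gstm5, Oplah, Ccs and Sod2 had genotypes that did not overlap, as had Glrx2 and Gstz1, together 6 of the 79 genes, beside 9.95% of all tested genes.

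A few other genes of this second list were looked at after their values were seen. Me1, the cytosolic NADPH-making malic enzyme, had 16.4, 15.3 and 17.6 CPM in KO replicates 1 to 3, and 28.9, 15.2 and 24.4 CPM in WT replicates 1 to 3. The pattern of WT replicates 1 and 3 highest and WT replicate 2 lowest was shared with Nqo1, and its log2 fold change was −0.41 (limma adjusted p = 0.866). Hmox1, the heme oxygenase that NRF2 induces and BACH1 represses, had 430.1, 582 and 441 CPM in KO replicates 1 to 3, and 567, 378 and 485 CPM in WT replicates 1 to 3. KO replicate 2 was highest and WT replicate 2 lowest, and the log2 fold change was 0.029. The ferritin chains Fth1 and Ftl1 stood at 6693 ± 517 CPM (KO) and 5983 ± 675 CPM (WT) and at 3234 ± 351 CPM (KO) and 3045 ± 130.0 CPM (WT). Bach1, the repressor that competes for AREs, stood at 135 ± 4.05 CPM (KO) and 136 ± 4.32 CPM (WT), Cul3, the scaffold of the ligase that KEAP1 serves, at 156 ± 20.8 CPM (KO) and 169.6 ± 16.2 CPM (WT), and the small MAF gene Mafg at 159.5 ± 12.7 CPM (KO) and 162 ± 8.28 CPM (WT). WT replicates 1 and 3 were the 2 highest libraries in 7 of the 79 genes (8.86%), beside 11.9% of all tested genes.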

How the data were processed

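Polyadenylated RNA was sequenced in 6 macrophage libraries, 3 KO and 3 WT, grouped by title. FastQC 0.11.15, Cufflinks, HTSeq 0.11.0, Trimmomatic 0.36 and HISAT2 2.1.0 are named, without their roles, per the submitters' processing notes. No source used here gives the genome build, annotation or strand setting. The authors deposited 1 table with log2 CPM per gene and library and their own p-values, not adjusted, of which 6 of 16836 could not be read.

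Log2 CPM values outside −1 to 1 were deposited without their decimal mark. Since 2 to the power of each value, less a shared offset, is a whole multiple of the CPM of 1 read, the mark was restored and whole reads were recovered, within 1e-06, for 100% of genes in each library. Limma-voom on these reads gave p-values within a relative gap of 4.37e-09 of the authors' deposited table. One read was worth 0.0277 to 0.0400 CPM.

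The test took genes that reached 1 CPM in 3 or more libraries, and log2(CPM + 1), with the authors' scaled library sizes, was fitted with limma 3.58.1 (eBayes with intensity trend) under R 4.3.3, with no covariate beside genotype. Changed means a two-sided p under 0.05 after Benjamini-Hochberg adjustment over all tested genes. The recovery and the fit were tested on simulated data. Libraries of a genotype differed beyond sampling noise (chi-square per degree of freedom 11.0 to 44.4), so none were merged. Near copies were sought with BLAST 2.17.0, positions come from GENCODE M21 (GRCm38), matched by Ensembl identifier for 34 of 34 genes, and promoters from RefSeq (GRCm38.p6). All genes of the list are named. Values per library are given for Nfe2l2, Keap1, genes with an unadjusted p under 0.05, the 3 most and 3 least variable, and those under the filter. They are also given for the genes marked as chosen after their values were seen. Most of these have WT replicates 1 and 3 as their 2 highest libraries, so the genes shown do not tell how common that order is. From the second list, the 4 higher and 4 lower genes with the smallest p are named. The gene lists, tests and alternatives were chosen with earlier results of these data known. A count-based test had been planned for raw counts, and the fit on log2 values was used because the columns hold log2 CPM.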

Additional observations from a re-analysis of the deposited data

How the results depend on the processing

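No gene of the list and none of the second list passed the threshold with all 6 libraries or in any of 15 alternatives, and Ube3a kept its direction in all of them. The number of genes called over the whole table was 2, against 1 with no filter on low values, 1 with a filter of 5 CPM, 1 with limma-voom on the recovered reads, 1 to 8 with 1 library left out and 24 without KO and WT replicate 2, which have almost no Xist. Genes of the list with an unadjusted p under 0.05 numbered 1, against 0 to 12 with 1 library left out (12 without WT replicate 2) and 10 without KO and WT replicate 2. Genes whose genotypes did not overlap numbered 0, against 1 with median centring (beside 9.78% of all tested genes), 1 to 15 with 1 library left out and 17 without KO and WT replicate 2 (beside 42.8%). Without KO replicates 1, 2 and 3 they numbered 3, 1 and 2, beside 19.7%, 15.5% and 24.2% of all tested genes, and without WT replicates 1, 2 and 3 they numbered 3, 15 and 1, beside 13.4%, 30.1% and 20.9%. Fewer libraries make separation easier by construction, and other causes were not tested. The median log2 fold change of the list lay between −0.083 and −0.012 in all fits. Of 33 genes, 20 kept their sign in every alternative. Signs turned without KO and WT replicate 2 for Slc7a11 at 0.16, G6pdx at −0.016, Gstm1 at −0.024, Mgst1 at −0.027, Ephx1 at −0.19. With 1 library left out, log2 fold changes that crossed 0 ranged as follows: Nfe2l2 (−0.026 to 0.047), Keap1 (−0.012 to 0.076), Gss (−0.040 to 0.010), Slc7a11 (−0.49 to 0.12), Srxn1 (−0.079 to 0.12), G6pdx (−0.038 to 0.056), Prdx2 (−0.010 to 0.063), Gpx1 (−0.22 to 0.058), Gstm1 (−0.057 to 0.076), Gsta3 (−0.21 to 0.14), Ephx1 (−0.10 to 0.22), Osgin1 (−0.057 to 0.17).

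Replicate numbers are shared by the genotypes, and whether they pair the libraries is not known. Deviations of same-numbered libraries from their genotype means correlated at −0.22, −0.13 and 0.14 over 12118 genes. For differently numbered libraries the correlations ran from −0.39 to 0.40. They were 0.40 for KO replicate 1 with WT replicate 2, 0.31 for KO replicate 3 with WT replicate 1 and 0.25 for KO replicate 2 with WT replicate 3. The other differently numbered pairs had −0.021, −0.31 and −0.39. The same-numbered pairs were thus not the most alike. Such deviations sum to 0 within each genotype of 3 libraries, which ties the correlations to one another, and pairing was not tested. Replicate 2 of both genotypes had almost no Xist RNA. With the replicate number as a block, 5 genes of the list (15.2%) had an unadjusted limma p under 0.05, beside 4.08% of all tested genes. They were Gclm, Gpx4, Gclc, Txnrd1 and Esd. None passed after adjustment, and 2 genes of the whole table did. Depth limits the lowest genes, with 14 to 52 reads per library for Aox1, Gsta3 and Gstp1.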
